A study of Homo sapiens with 4 samples.

Results

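miR-1306 and miR-3618 are made from hairpins that lie inside the messenger RNA of DGCR8, the RNA-binding subunit of the Microprocessor. They were taken by name from the counted miRNAs, which gave 3 members (hsa-miR-1306-5p, hsa-miR-1306-3p and hsa-miR-3618, written without the species prefix from here on) of 2366 human miRNAs. Small RNAs had been sequenced from K562-dCas9-KRAB cells, a human chronic myeloid leukaemia line with erythroid features that carries dCas9-KRAB, a Cas9 that cannot cut DNA joined to a repressor domain. This protein silences the gene its guide RNA points to, and here each of 2 guide RNAs against ERH had its own polyclonal, doxycycline-inducible line. In the knockdown group, cells of each line had 0.05 µg/ml doxycycline and were collected on day 5, and in the control group cells of the same line were collected without doxycycline, which gave 4 libraries with 1 per guide RNA in each group. Knockdown and control thus share the dCas9-KRAB fusion and the ERH guide RNA and differ in doxycycline. The effect of doxycycline alone was not analysed here.

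The Microprocessor, a complex of the nuclease DROSHA with DGCR8, cuts miRNA hairpins out of primary transcripts in the nucleus. It also cuts hairpins within the DGCR8 messenger RNA, which lowers that messenger and so limits the complex itself, a feedback known from many animal cells. ERH is a small conserved protein that binds DGCR8 and helps the complex cut hairpins that are poor substrates on their own and lie beside a good one. Mature miRNAs from the 5′ and 3′ side of a hairpin are called the 5p and 3p arm, and bases 2 to 8, the seed, do most of the target recognition.

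Both hairpins lie on the plus strand of chromosome 22 in exon 2 of DGCR8 (GENCODE 29, transcript DGCR8-201, GRCh38). The MIR3618 hairpin, at 20085746-20085833, sits in the untranslated part of that exon, and 130 bases separate its end from the start codon at 20085964. The MIR1306 hairpin, at 20086058-20086142, begins 94 bases after the first base of the start codon and lies wholly in coding sequence, over codons 32 to 60. A stretch of 224 bases separates the hairpins, so they are close neighbours on 1 transcript.

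**Figure D1:**
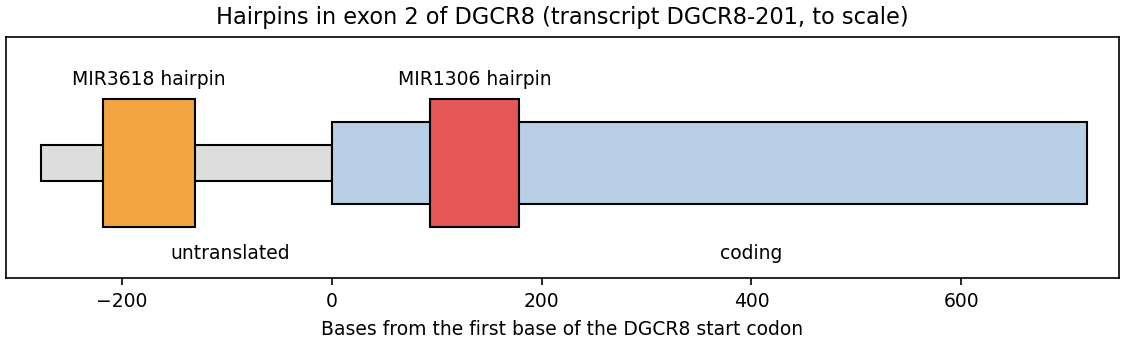
Map of exon 2 of DGCR8 drawn to scale, with bases from the first base of the start codon on the x axis, the untranslated part as a thin grey bar, the coding part as a thick blue bar and the hairpins as coloured boxes. The MIR3618 hairpin (88 bases) lies before the start codon and the MIR1306 hairpin (85 bases) after it.

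The mature sequences are given 5′ to 3′ from RefSeq (GRCh38.p14), with the seed in capitals, because the members differ in seed, length and base composition. All 3 members matched a RefSeq entry.
miR-1306-5p: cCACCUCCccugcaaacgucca
miR-1306-3p: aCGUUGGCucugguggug
miR-3618: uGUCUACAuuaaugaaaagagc

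miR-1306-5p spans 20086072-20086093 and starts on the first base of codon 37. miR-1306-3p spans 20086112-20086129, starts on base 2 of codon 50 and is separated from the 5p arm by 18 bases. The 3 seeds differ from each other. Among the 2090 names of the files that have a RefSeq sequence, 0 other miRNAs share bases 2 to 8 with any of the 3. miR-1306-3p is short, at 18 bases, against a median of 22 over the 413 tested miRNAs with a sequence, of which 6 (1.45%) have 18 bases or fewer. GC content is 63.6% in miR-1306-5p and 61.1% in miR-1306-3p, above the median of 47.8%, and 31.8% in miR-3618. When the 2 miR-1306 arms were folded onto each other in silico (RNAduplex), 13 base pairs formed with a predicted energy of -15.3 kcal/mol. In that duplex 6 of the 7 seed bases of each arm were paired, and the last 3 bases of the 5p arm stayed single-stranded.

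The libraries held 1430434 to 2476700 miRNA reads, beside 46150 to 59192 reads of 2 added spike-in RNAs. As a check of the cell type, the erythroid miRNA miR-451a stood at 24072 to 25243 CPM (reads scaled to 1000000 miRNA reads of the library) and miR-144-3p at 7734 to 18704. Libraries of small RNA hold no messenger RNA counts, so neither the loss of ERH nor the level of the DGCR8 host transcript could be checked. Each guide RNA and condition is represented by 1 culture, and p-values reflect only how far these 4 libraries spread. The fits estimate that spread partly from all tested miRNAs, so the size of a p-value also depends on the fit.

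After ERH knockdown miR-1306-5p, the main product of the hairpin, fell relative to the bulk of miRNAs, to 0.563 of its control level, with both guide RNAs alike. Its other arm, miR-1306-3p, had a lower fitted level that did not pass the test, and miR-3618 was all but unread. The fall of miR-1306-5p lost its call when libraries were scaled to the spike-in RNAs, as given below.

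miR-1306-5p had 567 reads in the knockdown library and 484 in the control library of guide RNA 1, and with guide RNA 2 it had 594 and 795. In CPM of the library total these were 254.6 (95% exact interval 234.0 to 276.4) after knockdown and 338.4 (308.9 to 369.9) in the control with guide RNA 1. With guide RNA 2 they were 248.2 (228.6 to 268.9) and 321.0 (299.1 to 344.1). Both knockdown libraries lay under both controls, and the counting intervals of the groups did not overlap. Such intervals cover counting error only. Lower levels in both knockdown libraries than in both controls were seen for 34.9% of the tested miRNAs on the scale used for the test. The share in CPM of the library total, or with intervals that do not overlap, was not counted.

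**Figure D2:**
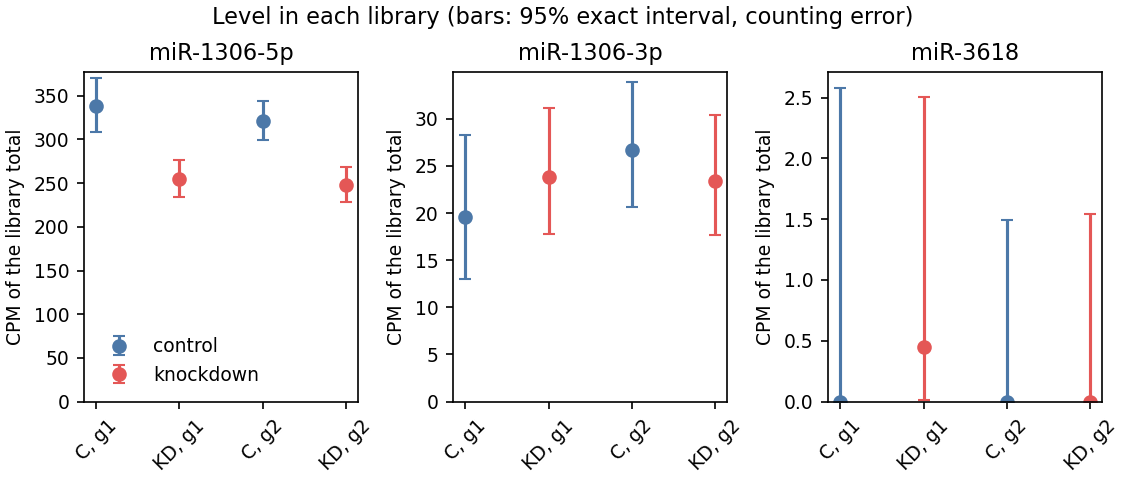
Level of the 3 members in each library, in CPM of the library total (y axes start at 0), with C for control, KD for knockdown and g1 and g2 for the guide RNAs. Points are single libraries and bars 95% exact intervals for counting error: miR-1306-5p is lower in both knockdown libraries (248.2 and 254.6) than in both controls (321.0 and 338.4), the miR-1306-3p intervals overlap, and miR-3618 is at or near 0.

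For the test, counts were scaled with TMM factors, which set the libraries so that the bulk of miRNAs does not shift. On that scale miR-1306-5p stood at 215.4 and 216.9 CPM after knockdown (guide RNAs 1 and 2) and at 383.9 and 383.6 CPM in controls, or 216.1 ± 1.03 against 383.7 ± 0.21 (SD, n = 2). These SDs are smaller than the counting error of 484 to 795 reads per library would give, so they understate the error. The log2 fold change of knockdown over control was -0.83 ± 0.08 (SE), with an adjusted p of 7.21e-07 (edgeR quasi-likelihood test, Benjamini-Hochberg adjustment over 464 tested miRNAs). In that comparison 25.2% of the tested miRNAs were called lower and 50.9% were called in either direction. Counted from the lowest fold change, miR-1306-5p ranked 35 of 464, and by its control level it ranked 113. Within guide RNA 1 the knockdown library had 0.561 of the control level (95% interval for counting error 0.496 to 0.635), and within guide RNA 2 it had 0.565 (0.508 to 0.630). The ratios from the 2 guide RNAs differed by less than their counting error. With the arms of each hairpin summed before the fit, miR-1306 was at -0.82 ± 0.09 (adjusted p = 6.71e-16, edgeR), where 25.5% of 368 tested hairpins were called lower. Its SE was no smaller than that of miR-1306-5p alone, so this smaller adjusted p is not stronger evidence.

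**Figure D3:**
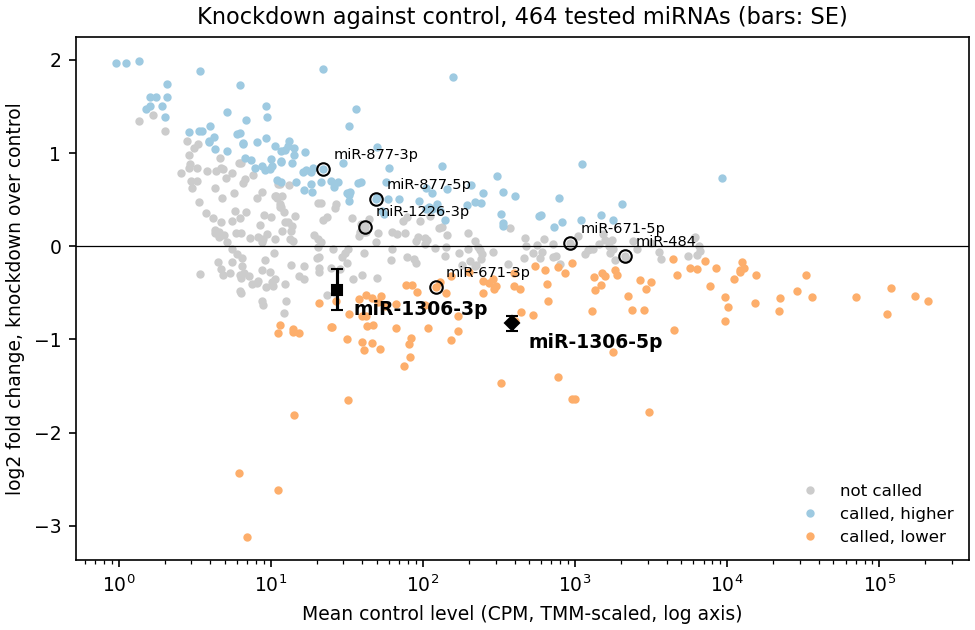
Log2 fold change of knockdown over control (y axis) against mean control level in TMM-scaled CPM (x axis, log scale) for the 464 tested miRNAs, coloured by call at an adjusted p under 0.05. The miR-1306 arms are black symbols with SE bars, at -0.83 (5p, called lower) and -0.47 (3p, not called), and open circles mark miR-671, miR-484, miR-877 and miR-1226.

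miR-1306-3p, the rarer arm, had 53 reads in the knockdown library and 28 in the control library of guide RNA 1, and 56 and 66 with guide RNA 2. These were 23.8 (17.8 to 31.1) and 19.6 CPM (13.0 to 28.3) of the library total with guide RNA 1, and 23.4 (17.7 to 30.4) and 26.6 CPM (20.6 to 33.9) with guide RNA 2. The knockdown libraries lay between the controls, and the counting intervals of all 4 libraries overlapped. With TMM scaling the means were 20.3 ± 0.22 CPM after knockdown and 27.0 ± 6.81 in controls (SD, n = 2), and the log2 fold change was -0.47 ± 0.22 (SE; adjusted p = 0.085, edgeR). Within guide RNA 1 the ratio of knockdown to control was 0.907 (0.563 to 1.49) and within guide RNA 2 it was 0.642 (0.442 to 0.931). The value depends on which control is kept: without control replicate 2 the log2 fold change was -0.15 (adjusted p = 0.75), and without control replicate 1 it was -0.66 and was called (adjusted p = 0.027).

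miR-3618, the only mature miRNA listed for the MIR3618 hairpin, had 1 read in all, in the knockdown library of guide RNA 1, and 0 in the other libraries. Taken as 3 reads, the limit that a count of 0 allows is 1.21 to 2.10 CPM in those libraries, and the upper ends of their two-sided 95% exact intervals, as plotted, are 1.49 to 2.58 CPM. Both groups were therefore at or under what the depth can show, and no fold change is given. Over the 4 libraries miR-1306-5p had 2440 reads and miR-1306-3p 203, so nearly all reads of the DGCR8 transcript's annotated miRNAs came from the coding-sequence hairpin. Read lengths and positions are not in the count tables, so fragments of the DGCR8 messenger itself could not be told from miRNA.

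The arms could also be set against each other within a library, which needs no scaling between libraries. The 3p arm made up 8.55% (95% exact interval 6.47% to 11.0%) of miR-1306 reads after knockdown and 5.47% (3.66% to 7.81%) in the control with guide RNA 1. With guide RNA 2 it made up 8.62% (6.57% to 11.0%) and 7.67% (5.98% to 9.65%). Both knockdown shares were above both control shares, while the intervals overlapped within each guide RNA. How many of the other hairpins with both arms tested separate in this way was not counted. Reads of the 5p arm per read of the 3p arm were 10.7 ± 0.06 after knockdown and 14.7 ± 3.71 in controls (SD, n = 2). The log2 ratio of 5p to 3p differed by -0.43 ± 0.22 (SE, 95% interval -0.999 to 0.13; adjusted p = 0.34, limma over 109 hairpins with both arms tested), so a shift between the arms did not pass the test, and the interval includes 0. Over the 109 hairpins 0 were called (0%), 21 had an unadjusted p under 0.05, and the median size of the difference was 0.23. With a prior variance that follows read depth 14 hairpins were called (12.8%) and miR-1306 was not among them (adjusted p = 0.25). An exact permutation test of the 4 libraries gave a two-sided p of 0.333, the smallest it can give. Without control replicate 1 the difference was -0.18, and without control replicate 2 it was -0.69, neither called.

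**Figure D4:**
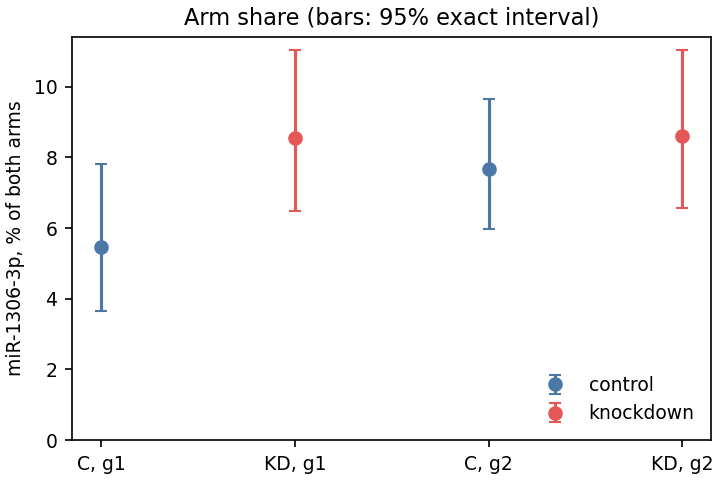
Share of miR-1306 reads that are the 3p arm, in percent (y axis from 0), for each library, with C for control, KD for knockdown and g1 and g2 for the guide RNAs. Points are single libraries and bars 95% exact intervals for counting error; the shares run from 5.47% in the control of guide RNA 1 to 8.62% in the knockdown of guide RNA 2, with overlapping bars.

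The direction of miR-1306-5p held under each scaling tried (spike-ins summed), but its size and its call did not. Its log2 fold change was -0.88 with RLE size factors and -0.39 ± 0.10 with library size alone (adjusted p = 9.76e-04, edgeR), where 8.84% of tested miRNAs were called lower. The median of all 464 tested miRNAs was 0.06 with TMM and lay 0.44 higher with library size. Scaled to the spike-in RNAs that median lay 0.68 higher, 1.72% of miRNAs were called lower, and miR-1306-5p was at -0.14 ± 0.37 (adjusted p = 0.76). Per 1000 spike-in reads it had 9.58 (knockdown) against 10.5 (control) with guide RNA 1, and 12.4 against 13.7 with guide RNA 2, so the groups overlapped. Within guide RNAs 1 and 2 the ratio of knockdown to control was then 0.913 (0.808 to 1.03) and 0.907 (0.814 to 1.01). The spike-in scale was the sum of both spike-ins, which did not move alike. With guide RNA 2 fly miR-14 had 4424 reads after knockdown and 7101 in the control, and frog miR-427 had 43458 and 51018. Against fly miR-14 alone miR-1306-5p (594 and 795 reads) would not be lower with guide RNA 2, while against frog miR-427 it would be. With guide RNA 1 fly miR-14 had 6745 reads after knockdown and 5670 in the control, and frog miR-427 had 52447 and 40480. Against frog miR-427 alone miR-1306-5p (567 and 484 reads) would be lower there, and against fly miR-14 nearly level. Scaling to a single spike-in was not run. For miR-1306-3p the log2 fold change was -0.02 with library size and 0.22 ± 0.36 with spike-ins, neither called. A change of scaling moves every miRNA and the median by nearly the same amount, so the distance of each arm from the median is 1 observation, whichever scaling is used.

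**Figure D5:**
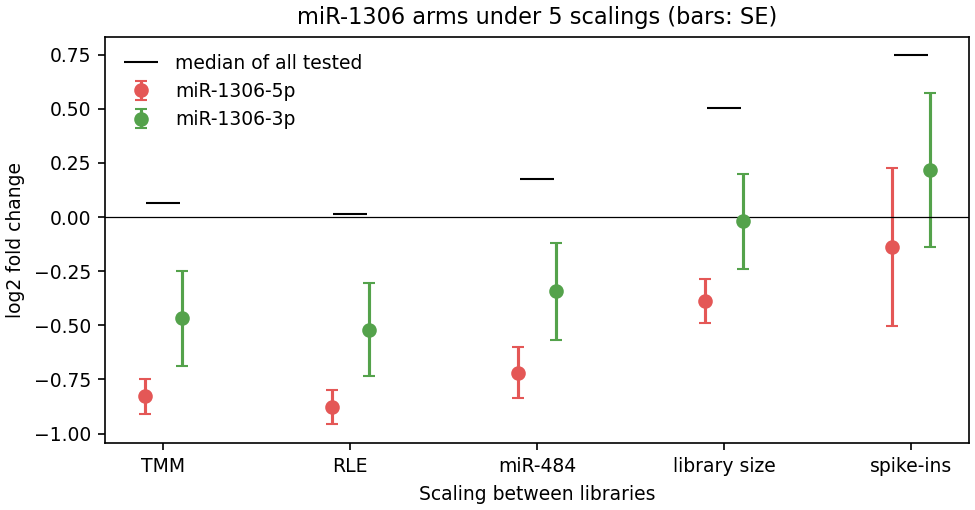
Log2 fold change of knockdown over control (y axis) for the miR-1306 arms under 5 scalings between libraries (x axis), with SE bars and the median of all tested miRNAs as a black dash. miR-1306-5p runs from -0.88 (RLE) to -0.14 (spike-ins) while the median, which each scaling moves alike, runs from 0.01 to 0.75.

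Some miRNAs reach their mature form without the Microprocessor, and a list of these served as a reference. It holds the mirtrons miR-877, miR-1224, miR-1225 and miR-1226, whose hairpin ends are set by splicing, and miR-484, whose capped hairpin is made directly by transcription. Of 9 names with a row 4 were tested, of which 2 (both arms of the miR-877 hairpin) rose and 0 fell. The median log2 fold change of the 4 was 0.36 against 0.06 for all tested miRNAs. miR-877-5p rose by 0.51 ± 0.15 (adjusted p = 0.0092) and miR-877-3p by 0.82 ± 0.21 (adjusted p = 0.0049), while miR-1226-3p was at 0.21 ± 0.16 and miR-484 at -0.11 ± 0.06 (edgeR, SE). Calls of higher levels were made for 25.6% of all tested miRNAs. Scaled by library size all 4 were called higher, where 58.8% of all tested miRNAs were. Spike-in scaling called 3 of them higher and left miR-484 at 0.57, not called, where 40.1% of all tested miRNAs were called higher.

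miR-484, the best read of these, allowed a ratio within each library. Per 1000 miR-484 reads there were 106.3 and 113.3 reads of miR-1306-5p after knockdown and 187.2 and 175.0 in controls (guide RNAs 1 and 2). The groups did not overlap, and the means were 109.8 ± 4.93 against 181.1 ± 8.68 (SD, n = 2), a ratio of 0.606. The share of all tested miRNAs that separate so on this scale was not counted. With TMM scaling both knockdown libraries lay under both controls for 34.9% of them. For miR-1306-3p the values were 9.94 and 10.7 (knockdown) against 10.8 and 14.5 (control), close together for guide RNA 1. With miR-484 as the scale for the whole table, a choice made after the data were seen, miR-1306-5p was at -0.72 ± 0.12 (adjusted p = 4.14e-05, edgeR), 16.6% of miRNAs were called lower, and miR-1306-3p was at -0.34 ± 0.23 (adjusted p = 0.22).

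Positions were looked up for names with a RefSeq sequence (413 of the 464 tested miRNAs) and a hairpin in GENCODE. Among those, hairpins wholly inside an exon of a protein-coding gene on the same strand are uncommon. Such a hairpin was found for 93 miRNAs other than the members. Of these, 14 were tested, 2 rose, 3 fell and 9 were not called, with a median log2 fold change of 0.00. Over all tested miRNAs 25.6% were called higher and 25.2% lower. The 14 include miR-484 (NDE1) of the reference list above, and both arms of some hairpins, miR-10a, miR-1908 and miR-671 among them. With library size 10 were called higher and 2 lower (median 0.44), and with spike-ins 4 were called higher and 0 lower (median 0.69). miR-197-3p (GNAI3) rose by 0.46 ± 0.05 and miR-2110 (CCDC186) by 0.68 ± 0.17 (SE), and spike-in or library-size scaling also called both higher. miR-1908-5p and miR-1908-3p (FADS1) fell, by 0.91 ± 0.12 and 1.02 ± 0.22. Both miR-1908 arms were called lower with library size and negative but not called with spike-ins (-0.24 and -0.37), as miR-1306-5p was. miR-10a-5p and miR-10a-3p (HOXB4) were at -0.03 ± 0.06 and -0.12 ± 0.13 and were not called.

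Among the tested miRNAs whose position was looked up, only 2 besides miR-1306 came from a hairpin wholly in coding sequence. These were the arms of miR-671 in CHPF2, a gene for a chondroitin-synthesis protein. Their sequences are given from RefSeq (GRCh38.p14, chromosome 7, plus strand, 151238449-151238471 and 151238488-151238508), with the seed in capitals, to set this hairpin beside miR-1306.
miR-671-5p: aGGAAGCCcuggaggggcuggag
miR-671-3p: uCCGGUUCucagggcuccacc

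miR-671-5p, the main arm, was at 953.4 ± 20.2 TMM-scaled CPM after knockdown and 930.5 ± 33.8 in controls (SD, n = 2), a log2 fold change of 0.03 ± 0.06 (adjusted p = 0.69, edgeR; 0.47 and called with library size). miR-671-3p was at 88.6 ± 2.77 against 121.3 ± 9.09 CPM and fell by 0.44 ± 0.12 (adjusted p = 0.0056), a value of -0.00 with library size and 0.25 with spike-ins, neither called. The log2 ratio of miR-671-5p to miR-671-3p differed by 0.49 ± 0.16 (SE, adjusted p = 0.21, limma over the 109 hairpins), against -0.43 for miR-1306. These differences between the arms ran in opposite directions, and neither passed the test. Per 1000 reads of miR-671-5p, a reference also chosen after the data were seen, there were 222.6 and 230.9 reads of miR-1306-5p after knockdown and 423.4 and 401.9 in controls (guide RNAs 1 and 2). The groups did not overlap, with means of 226.8 ± 5.89 and 412.7 ± 15.2 (SD, n = 2). The share of all tested miRNAs that separate so was not counted on this scale, and was 34.9% with TMM scaling.

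Across the 4 libraries the pattern most like that of miR-1306-5p, by the root mean square difference of log2 CPM centred on each miRNA's mean, was that of miR-15a-5p (0.013), a repressor of cell cycle genes. Next came miR-193b-5p (0.030), miR-424-3p (0.044), miR-27b-5p (0.050) and miR-33b-3p (0.054). Their log2 fold changes ran from -0.94 ± 0.33 (miR-27b-5p) to -0.75 ± 0.11 (miR-33b-3p), with miR-15a-5p at -0.80 ± 0.05 (SE, edgeR). The control levels of these miRNAs spanned 11.1 CPM (miR-27b-5p) to 9631 CPM (miR-15a-5p). Whether likeness of pattern goes with likeness of level over all tested miRNAs was not tested. miR-193b-5p (18 to 28 reads per library) and miR-27b-5p (14 to 23) had few reads, so counting error limits what their nearness shows. For miR-1306-3p the nearest were miR-29c-5p (0.062), miR-218-5p (0.072), miR-221-5p (0.072), miR-193a-5p (0.077) and miR-93-3p (0.092). The arms of miR-1306 were not near neighbours of each other, at a difference of 0.287, and the 3p arm ranked 106th in nearness to the 5p arm. With 4 libraries such a distance is mostly the fold change itself.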

How the data were processed

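Raw read counts per mature miRNA were used as deposited by the authors, 1 whole number per miRNA and library, in 4 tables of 2368 rows without headers. By their names 2 rows are spike-in RNAs (frog miR-427 and fly miR-14), which were kept out of library totals. Trimming, aligner, miRNA annotation, genome build and the assignment of reads to miRNAs are each not given in the sources used here. Per the labels, total RNA came from TRIzol extraction and the small RNA was purified on a gel.

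Groups and guide RNA numbers came from the sample titles. Libraries with the same number come from 1 polyclonal line, which pairs them by design. The correlation of the deviations of same-numbered libraries was -0.11. No library was a duplicate: the chi-square per degree of freedom within groups was 3.93 (knockdown) and 10.1 (control).

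The filter filterByExpr, at a minimum count of 10 and a minimum total of 15, left 464 miRNAs holding 99.9% of the reads. TMM scaling and the edgeR 4.0.16 quasi-likelihood test (R 4.3.3) followed, on group alone. An adjusted p under 0.05 was a call. Log2 CPM used a prior count of 2. Arm ratios (0.5 added to each count) were tested with limma 3.58.1. Intervals for counts and shares are exact binomial (Clopper-Pearson) at 95% and cover counting error only. The scripts were tested on simulated data. Alternatives were a replicate block, RLE, library size, spike-ins, DESeq2 1.42.0, other filters and leaving out the most abundant miRNA or each library. Scaling to miR-484, the crossed block, the other scalings of the ratios within a guide RNA and summed arms were added after seeing the data.

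Named miRNAs are the members, tested miRNAs sharing a seed with them, the 5 nearest patterns of each tested member, up to 10 abundant exon-hosted miRNAs and the Microprocessor-independent list. The names miR-320a, miR-320a-3p and miR-320a-5p of that list had no row and were not analysed here. Members and lists were chosen with earlier results of these data known. Positions come from GENCODE 29 and sequences from RefSeq (GRCh38.p14), which place 1502 of 1510 shared hairpins alike. The duplex energy came from RNAduplex 2.7.2, and plots from matplotlib 3.10.9.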

Additional observations from a re-analysis of the deposited data

How the results depend on the processing

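The count of called miRNAs was 236 (119 up, 117 down), and 129 with DESeq2 (35 up, 94 down). It ran from 117 (without knockdown replicate 1) to 195 when 1 library was left out, and was 140 without control replicate 2. With library size the split was 273 up and 41 down, and with spike-ins 186 up and 8 down. miR-1306-5p kept its direction and call under 13 of 14 alternatives; the exception was spike-in scaling, at -0.14. Leaving out 1 library gave -0.85 to -0.83, and summing the arms of each hairpin gave -0.82. miR-1306-3p was 0.22 with spike-ins, and -0.66 (called) to -0.15 when 1 library was left out. The cause of these changes was not tested. The ratio of knockdown to control for miR-1306-5p was 0.753 and 0.773 with library size and 0.913 and 0.907 with spike-ins (guide RNAs 1 and 2), and for miR-1306-3p with guide RNA 2 it was 1.03 with spike-ins. The arm ratio was not called under any of its 8 alternatives, and leaving out 1 library gave -0.69 to -0.18.

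With guide RNA as a replicate block, miR-1306-5p was at -0.83 ± 0.10 (SE, adjusted p = 1.94e-08, edgeR) and miR-1306-3p at -0.44 (adjusted p = 0.11). The SE of miR-1306-5p was no smaller than without the block, so its smaller adjusted p is not stronger evidence. The arm ratio was at -0.43, and 230 miRNAs were called. The block changed no call of a member. With the numbers crossed, 241 were called. The 28 to 66 reads of miR-1306-3p per library and the single read of miR-3618 limit what could be detected for them.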
